A study of Saccharomyces cerevisiae with 24 samples.

Results

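The proteasome subunit genes of *Saccharomyces cerevisiae* and *RPN4*, the gene of their transcription factor, were followed in strains without the histone variant H2A.Z, without a subunit of the SWR1 complex, or without both. The members are the probe sets whose single paired gene symbol is PRE, PUP, RPN or RPT with a number, or SCL1. There are 34 of them, each of a different gene, among the 5498 probe sets of the array that are paired with 1 yeast gene. Of the 34, 32 are subunits of the mature particle. The other two are *RPN4* and *RPN14*, a chaperone of its assembly. All 34 lay above the 25th percentile of the tested probe sets in mean level (8.63 on the log2 scale), between 9.01 (*RPN14*) and 12.26, and no member was lost to a filter.

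RNA from 24 cultures, 3 independent ones for each of 8 strains grown in minimal medium to mid-log phase, was hybridised to 1 Affymetrix Yeast Genome 2.0 array each. The strains share the BY4741 background (*MATa his3Δ1 leu2Δ0 ura3Δ0 met15Δ0*), which is the wild type, and no further treatment. *htz1Δ* (BYh1b1-6A) lacks H2A.Z and also carries *bar1Δ*. *swr1Δ*, *swc2Δ* (Y04319) and *swc5Δ* (Y03371) each lack 1 subunit of SWR1, the complex that places H2A.Z into nucleosomes. *swr1Δ* is given as Y03693 in replicate 1 and by other numbers in replicates 2 and 3, which were taken as the same strain. The double mutants are *htz1Δ swr1Δ* (BYh1s1-8D), *htz1Δ swc2Δ* (BYh1s2-1B) and *htz1Δ swc5Δ* (BYh1s5-4C), and the last also carries *lys2Δ0*. Each genotype was 1 strain, so a difference between strains cannot be told apart from other differences that a strain may carry.

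Values are log2 expression. The *swr1Δ* arrays had deposited medians of 9.29 to 9.30, *swc2Δ* of 10.06 to 10.10, *swc5Δ* of 9.97 to 9.99 and the other 15 arrays of 9.71 to 9.77, and whether the level is the mutation or the processing cannot be told apart. The 9 single-mutant arrays were therefore mapped by rank onto the distribution of the other 15. In the strains that lack them, *HTZ1* fell by 7.10 to 7.45 against wild type, *SWR1* fell by 5.89 in *swr1Δ* and fell by 6.50 in *htz1Δ swr1Δ*, Swc2's gene *VPS72* fell by 5.02 and 5.51, *SWC5* fell by 5.11 and 5.25, and *BAR1* in *htz1Δ* fell by 9.30. Differences were tested with limma over all 24 arrays and called at an adjusted p under 0.05, with no minimum size. The p-values measure the spread between these cultures.

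The proteasome degrades proteins tagged with ubiquitin. Its 20S core is a barrel of alpha rings, which gate the entrance, and beta rings, which hold the active sites. The 19S particle at its end has a base, with a ring of ATPases that unfold substrates, and a lid, which removes ubiquitin. Rpn4 binds an element upstream of most proteasome genes and raises their transcription together. It is itself a short-lived substrate of the proteasome, so that impaired degradation stabilises it.

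The proteasome subunits moved little in any mutant. Against wild type their median change lay between -0.09 (*swc5Δ*) and 0.04 (*htz1Δ*), and no subunit changed by more than 0.41. The median absolute change of the subunits was 0.07 to 0.11, beside 0.16 to 0.25 for all tested probe sets. In *htz1Δ* 6 of the 32 subunits rose and 1 fell, where 24.2% and 26.9% of all tested probe sets did. In *swr1Δ* 2 rose and 5 fell (all tested 14.7% and 17.6%), in *swc2Δ* 2 and 7 (16% and 17.3%) and in *swc5Δ* 2 and 5 (16.4% and 16.6%). In the double mutants 0 rose and 4 fell in *htz1Δ swr1Δ* (10.9% and 18%, with 1 and 8 subunits at an unadjusted limma p under 0.05), 1 and 5 in *htz1Δ swc2Δ* (15% and 16.3%), and 1 and 4 in *htz1Δ swc5Δ* (17.9% and 18.7%). The share of subunits called was thus near the background or under it in each comparison. All 7 comparisons share the wild-type arrays. The subunits that moved least were *RPN8* (-0.019) and *PRE4* (-0.0055) in *htz1Δ*, *RPN13* (0.0017) and *PUP3* (9.2e-05) in *swr1Δ*, and *RPN11* (0.0089) and *PRE2* (0.008) in *swc5Δ*. In the double mutants they were *RPN1* (-0.0047) and *RPN13* (0.0012), *RPN11* (-0.0059) and *RPN13* (-0.0017), and *RPN1* (0.013) and *RPN8* (0.009).

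**Figure D1:**
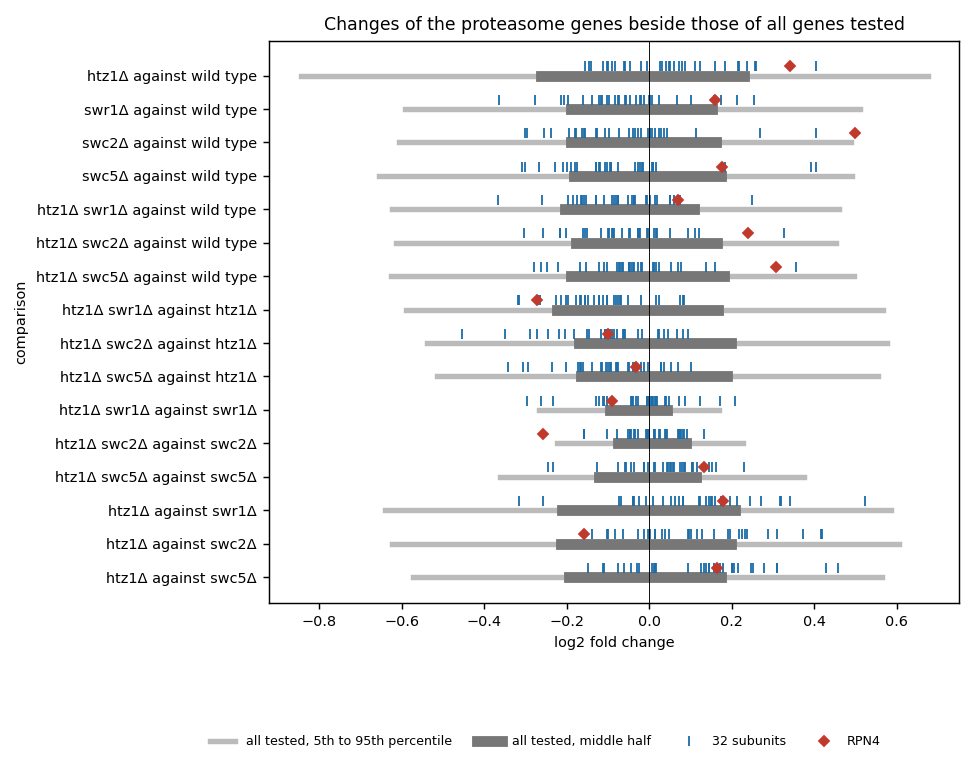
Log2 fold change (horizontal axis) in each of 16 comparisons of 2 strains (vertical axis). Blue ticks are the 32 subunits, red diamonds are RPN4, and the grey bars span the middle of the distribution and the 5th to 95th percentile of all 5498 tested probe sets. The subunits lie mostly within the bars. Against wild type RPN4 lies to the right of all 32 subunits in swc2Δ (0.50), while in htz1Δ (0.34) it lies inside the bar and left of the highest subunit, RPN2 (0.40).

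Of the 224 subunit-by-strain comparisons with wild type, 45 passed. In each strain the share called was near or under that of all tested, as given above. The 45 calls involved 19 subunits, while 13 (*PRE2*, *PRE6*, *PRE7*, *PUP1*, *PUP3*, *RPN1*, *RPN5*, *RPN11*, *RPN12*, *RPT1*, *RPT3*, *RPT4* and *RPT5*) passed in no mutant. Of the 45 calls, 13 held whichever single array of the 2 strains was left out. They were *RPN2* in *htz1Δ*, *swc2Δ*, *swc5Δ* and *htz1Δ swc5Δ*, *RPT2* in *swc5Δ*, *htz1Δ swr1Δ* and *htz1Δ swc5Δ*, *PRE10* in *swr1Δ* and *swc5Δ*, *RPN7* in *htz1Δ*, *RPN10* in *swc2Δ*, *RPN3* in *swc5Δ* and *RPN6* in *swr1Δ*. The counts against wild type are therefore set by few arrays. How many calls of all tested probe sets hold in the same way was not counted. Of subunits that fell in *swc2Δ* there were 3 without wild-type replicate 1 or 2 and 2 without *swc2Δ* replicate 3. The count that fell in *swc5Δ* was 15 without *swc5Δ* replicate 1 and 2 without its replicate 3 or wild-type replicate 2, and the count that rose in *htz1Δ* was 2 without wild-type replicate 3 and 3 without *htz1Δ* replicate 2. With only the strains compared in the fit, all 7 calls in *swc5Δ* were lost, those of *RPN2* (adjusted p = 0.057), *RPT2* (0.058), *RPN3* (0.075) and *PRE10* (0.12) included, and 3 subunits fell in *swc2Δ*.

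The single-mutant counts also depend on the level of the arrays. On the values as deposited 31 subunits fell and 0 rose in *swr1Δ*, 25 rose and 0 fell in *swc2Δ*, and 12 rose and 0 fell in *swc5Δ*. The share of all tested probe sets on those values was not counted. Whole arrays differ in level there, so these counts are not read as a result about the subunits. The comparisons of *htz1Δ* and the double mutants with wild type rest on deposited values.

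**Figure D2:**
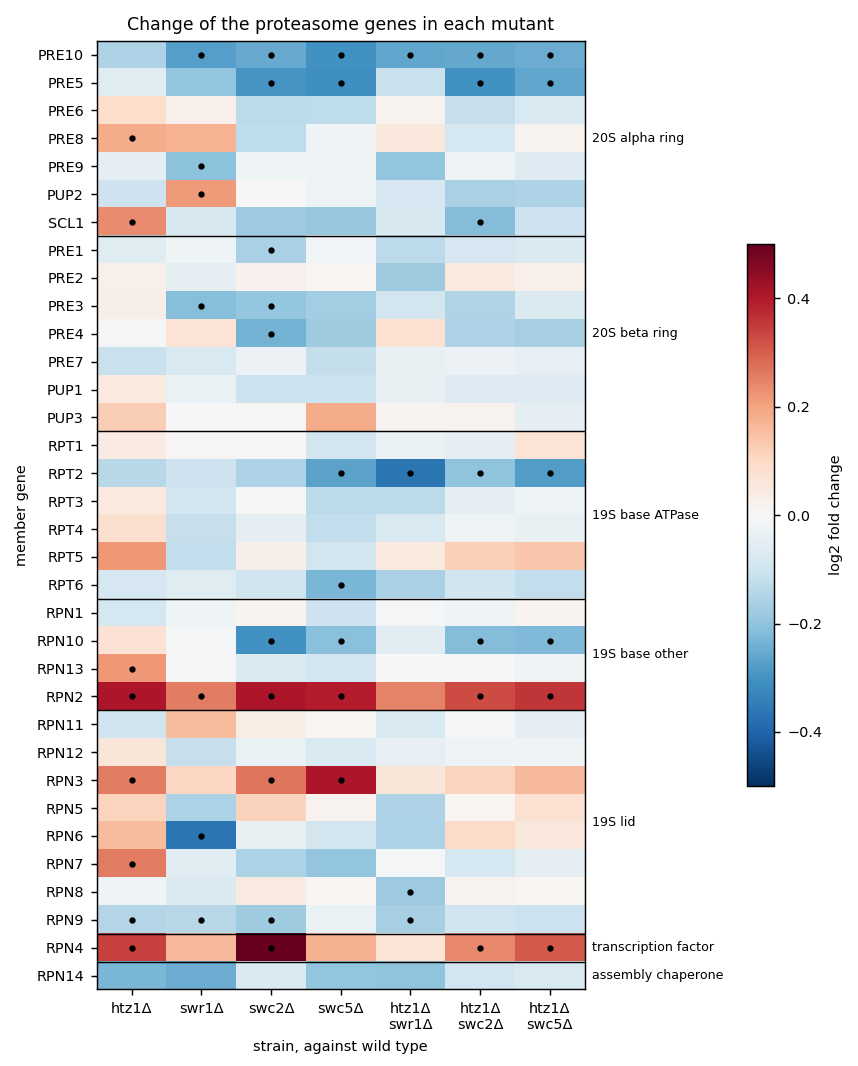
Log2 fold change against wild type (colour, from blue for lower to red for higher) of all 34 members (rows, grouped by role) in the 7 mutants (columns). A dot marks an adjusted p under 0.05. RPN2 is higher and PRE10 lower in every column, RPN4 is higher in every column, and most other cells are pale. The swr1Δ, swc2Δ and swc5Δ columns are of mapped values, and on the deposited values some of these directions turn.

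*RPN4* (YDL020C) read 10.25, 9.83 and 9.996 on the wild-type arrays. On the *htz1Δ* arrays it read 10.38, 10.45 and 10.28, all above the wild type, a difference of 0.34 ± 0.08 (SE, 1.27-fold, limma adjusted p = 0.0015). The highest levels were those of *swc2Δ*, 10.62, 10.51 and 10.44, which exceeded the wild type by 0.50 ± 0.08 (1.41-fold, adjusted p = 9.4e-05). Of the 8 strains *swc2Δ* was the one with all 3 arrays above 10.4 on the mapped values. The size of its difference rests on the mapped level. *RPN4* in *htz1Δ* was 0.16 under *swc2Δ* on the mapped values. On the deposited ones it was 0.51 under *swc2Δ* (limma adjusted p = 1.9e-05).

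In *swr1Δ* *RPN4* read 10.22, 10.21 and 10.14 and in *swc5Δ* 10.22, 10.16 and 10.24. Both sets overlap the wild type, whose replicate 1 is higher than all 6. The differences of 0.16 (95% interval -0.0031 to 0.32) and 0.18 (0.012 to 0.34) did not pass (adjusted p = 0.13 and 0.092). Without wild-type replicate 1 they were 0.28 and 0.29 and passed (adjusted p = 0.0055 and 0.0041). On the deposited values *RPN4* fell by 0.29 in *swr1Δ* (adjusted p = 0.0027) and rose by 0.42 in *swc5Δ* (adjusted p = 0.00021).

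Among the double mutants *RPN4* rose in *htz1Δ swc5Δ* (10.30, 10.33 and 10.38) by 0.31 (adjusted p = 0.005), a call that was lost with only the strains compared in the fit (adjusted p = 0.072). In *htz1Δ swc2Δ* (10.27, 10.31 and 10.23) it rose by 0.24 (adjusted p = 0.025), with arrays that overlap the wild type. That call was lost without wild-type replicate 2 (0.14, adjusted p = 0.18) or 3 (0.22, 0.074) and without *htz1Δ swc2Δ* replicate 1 (0.24, 0.058) or 2 (0.22, 0.079). In *htz1Δ swr1Δ* (10.17, 10.05 and 10.07) the difference was 0.07 (95% interval -0.09 to 0.23, adjusted p = 0.54). From the lowest mean the order was wild type, *htz1Δ swr1Δ*, *swr1Δ*, *swc5Δ*, *htz1Δ swc2Δ*, *htz1Δ swc5Δ*, *htz1Δ* and *swc2Δ*. The neighbours *htz1Δ swr1Δ* and *swr1Δ* (difference -0.09, adjusted p = 0.86), *htz1Δ* and *swc2Δ* (difference -0.16, adjusted p = 0.11) and *htz1Δ* and *htz1Δ swc5Δ* (-0.03, adjusted p = 0.78) did not differ beyond their spread, nor did wild type and *htz1Δ swr1Δ*, and the other neighbours were not compared.

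**Figure D3:**
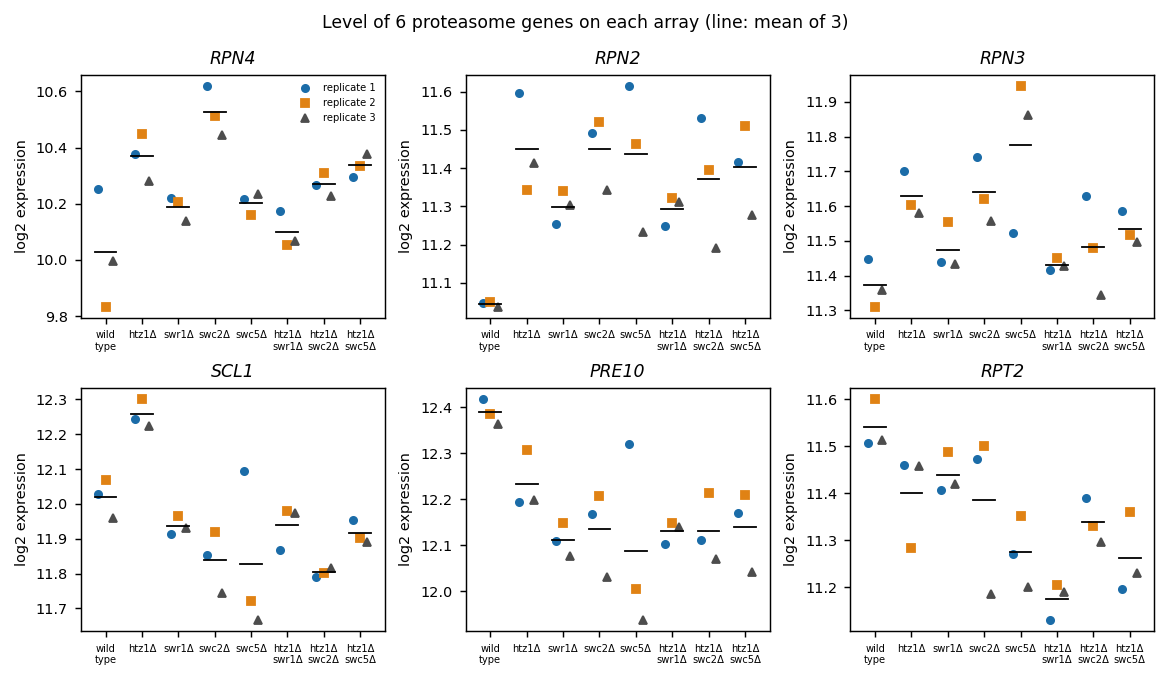
Log2 expression (vertical axis) of RPN4, RPN2, RPN3, SCL1, PRE10 and RPT2 on each of the 24 arrays, by strain (horizontal axis). Points are arrays, with the replicate number as shape, and the line is the mean of 3. The wild-type arrays of RPN2 lie at 11.04 to 11.05 under all mutant arrays, and those of PRE10 at 12.36 to 12.42 above all of them. The swr1Δ, swc2Δ and swc5Δ arrays are shown at their mapped values.

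In the 20S alpha ring the change seen in most strains was a lower *PRE10* (YOR362C). Its wild-type arrays read 12.42, 12.38 and 12.36, and all 21 mutant arrays were lower, at 11.94 to 12.32. The single-mutant arrays are mapped here, and how many tested probe sets are separated likewise was not counted. *PRE10* fell in 6 of 7 mutants, by 0.25 to 0.30, with adjusted p between 0.006 and 0.018. In *htz1Δ* (12.19, 12.31 and 12.20) the difference of -0.16 did not pass (adjusted p = 0.1). On the deposited values it was 0.06 higher in *swc2Δ* (adjusted p = 0.56) and 0.07 lower in *swc5Δ* (0.48). Leaving out wild-type replicate 1 lost the call in *swc2Δ* (adjusted p = 0.056) and in all 3 double mutants (0.053 to 0.057). Other single arrays did so too, at most at an adjusted p of 0.087.

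*PRE5* (YMR314W), another alpha subunit, read 11.72, 11.80 and 11.67 in wild type. It fell in *swc2Δ* (11.48, 11.53 and 11.30) by 0.30 and in *htz1Δ swc2Δ* (11.35, 11.46 and 11.48) by 0.30. In *htz1Δ swc5Δ* (11.57, 11.45 and 11.38) it fell by 0.26, and in *swc5Δ* (11.68, 11.33 and 11.26) by 0.31, where replicate 1 reaches into the wild-type range. Adjusted p lay between 0.011 and 0.025, and each of these calls was lost without 2 or more single arrays, wild-type replicate 2 in every case. On the deposited values the differences in *swc2Δ* and *swc5Δ* were 0.04 and -0.06 (adjusted p = 0.73 and 0.58).

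*SCL1* (YGL011C), also of the alpha ring, went opposite ways. It read 12.03, 12.07 and 11.96 in wild type and 12.24, 12.30 and 12.22 in *htz1Δ*, and rose there by 0.24 (adjusted p = 0.017). In *htz1Δ swc2Δ* (11.79, 11.80 and 11.82) it fell by 0.22 (adjusted p = 0.045). The first call was lost without wild-type replicate 3 (adjusted p = 0.071) or *htz1Δ* replicate 2 (0.06), the second without any 1 of its 6 arrays. *PRE8* rose in *htz1Δ* by 0.18 (adjusted p = 0.031), a call lost without any 1 of 5 arrays (adjusted p up to 0.13). In *swr1Δ* *PUP2* rose by 0.21 (arrays 12.14, 12.09 and 12.05 against 11.90, 11.88 and 11.86, adjusted p = 0.014), but on the deposited values it fell by 0.15 (adjusted p = 0.035). *PRE9*, the alpha subunit that cells can lack, fell in *swr1Δ* by 0.21 (adjusted p = 0.037). *PRE6* passed in no mutant.

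In the beta ring none of the 7 genes rose in any mutant. *PRE3*, which carries the caspase-like site, fell in *swr1Δ* (12.05, 12.05 and 11.97, from 12.27, 12.31 and 12.14) by 0.21 (adjusted p = 0.02) and in *swc2Δ* by 0.19 (adjusted p = 0.032), where its arrays overlap the wild type. *PRE4* fell in *swc2Δ* (11.77, 11.71 and 11.46, from 11.87, 11.92 and 11.87) by 0.24 (adjusted p = 0.017), and *PRE1* by 0.16 (adjusted p = 0.039). These 3 falls in *swc2Δ* turned on the deposited values, to 0.12 for *PRE3*, 0.095 for *PRE4* and 0.16 for *PRE1* (adjusted p = 0.14, 0.27 and 0.016). *PUP1*, with the trypsin-like site, and *PRE2*, with the chymotrypsin-like site, lay between -0.11 and 0.05 and between -0.18 and 0.05 and passed in no mutant.

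In the base of the 19S particle *RPN2* (YIL075C), the scaffold that carries Rpn13, was the subunit called up most often. The wild-type arrays read 11.05, 11.05 and 11.04. *htz1Δ* read 11.60, 11.34 and 11.41 and *swc2Δ* 11.49, 11.52 and 11.34, and the lowest of the 21 mutant arrays was *htz1Δ swc2Δ* replicate 3 at 11.19, so that no mutant overlaps the wild type. The single-mutant arrays are mapped here, and how many tested probe sets are separated likewise was not counted. *RPN2* rose in 6 of 7 mutants, by 0.25 to 0.41, with adjusted p from 0.0016 (*htz1Δ*) to 0.046 (*swr1Δ*). In *htz1Δ swr1Δ* (11.25, 11.32 and 11.31) the difference of 0.25 had an adjusted p of 0.055. The call in *swr1Δ* was lost without any 1 of the 6 arrays, and its difference was -0.16 on the deposited values (adjusted p = 0.14). The call in *htz1Δ swc2Δ* was lost without its replicate 1 (0.25, adjusted p = 0.08).

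*RPN10* and *RPN13*, the ubiquitin receptors of the base, differed from *RPN2*. *RPN10* (YHR200W) read 11.69, 11.78 and 11.73 in wild type and 11.48, 11.53 and 11.27 in *swc2Δ*, a fall of 0.30 (adjusted p = 0.0019). It also fell by 0.21 to 0.22 in *swc5Δ*, *htz1Δ swc2Δ* and *htz1Δ swc5Δ* (adjusted p = 0.022, 0.018 and 0.014), and in *htz1Δ* it read 11.77, 11.84 and 11.79. Each of these 3 calls was lost without 2 or 3 single arrays. On the deposited values the difference was 0.03 in *swc2Δ* (adjusted p = 0.66) and 0.04 in *swc5Δ* (0.64). *RPN13* rose only in *htz1Δ* among the 7 mutants (11.41, 11.54 and 11.46, from 11.31, 11.25 and 11.20), by 0.22 (adjusted p = 0.014), and *RPN1*, the other large scaffold, passed in none.

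Among the ATPases only *RPT2* and *RPT6* passed in a comparison with wild type. *RPT2* (YDL007W), which takes part in opening the gate of the core, read 11.51, 11.60 and 11.51 in wild type and 11.13, 11.20 and 11.19 in *htz1Δ swr1Δ*, a fall of 0.37 (adjusted p = 0.001). It fell by 0.28 in *htz1Δ swc5Δ* (11.20, 11.36 and 11.23, adjusted p = 0.0068), by 0.27 in *swc5Δ* (11.27, 11.35 and 11.20, adjusted p = 0.0099) and by 0.20 in *htz1Δ swc2Δ* (11.39, 11.33 and 11.30, adjusted p = 0.046). The last call was lost without any 1 of its 6 arrays. *RPT6* fell in *swc5Δ* by 0.23 (adjusted p = 0.026). The *swc5Δ* differences on the deposited values were -0.02 for *RPT2* and -0.003 for *RPT6* (adjusted p = 0.83 and 0.98). The smallest changes in *swc2Δ* were those of *RPT1* (0.0023) and *RPT3* (0.0016).

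In the lid *RPN3* rose in 3 mutants and *RPN9* fell in 4. *RPN3* (YER021W) read 11.45, 11.31 and 11.36 in wild type. It read 11.52, 11.95 and 11.86 in *swc5Δ*, a rise of 0.41 (adjusted p = 0.0018, and 0.075 with only the strains compared in the fit), and rose by 0.27 in *swc2Δ* (11.74, 11.62 and 11.56, adjusted p = 0.025) and 0.26 in *htz1Δ* (11.70, 11.60 and 11.58, adjusted p = 0.022). The last pair of calls was lost without wild-type replicate 2 or 3 or the replicate 1 of the mutant (adjusted p 0.057 to 0.11). *RPN9* fell by 0.14 to 0.18 in *htz1Δ*, *swr1Δ*, *swc2Δ* and *htz1Δ swr1Δ* (adjusted p 0.011 to 0.042), and had the lowest spread of the 32 subunits (pooled SD 0.05). Without wild-type replicate 1 all 4 calls were lost (0.09 to 0.13 lower, adjusted p 0.074 to 0.22), and on the deposited values *RPN9* was 0.16 higher in *swc2Δ* (adjusted p = 0.011).

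*RPN7* (YPR108W) passed against wild type in *htz1Δ* alone. It read 11.84, 11.83 and 11.79 in wild type and 12.13, 12.08 and 12.04 in *htz1Δ*, a rise of 0.26 (adjusted p = 0.011), and its difference in the other 6 mutants was between -0.20 and -0.01. *RPN6* (YDL097C), which clamps the lid to the core, fell in *swr1Δ* (11.34, 11.44 and 11.31, from 11.75, 11.75 and 11.68) by 0.36 (adjusted p = 0.0036). *RPN8*, the partner of the deubiquitinase Rpn11, fell in *htz1Δ swr1Δ* by 0.18 (adjusted p = 0.014), and *RPN11* itself passed in none. *RPN14*, outside the mature particle, was lower in all 7 mutants, by 0.07 to 0.25, and passed in none (adjusted p 0.11 to 0.69).

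The mean level of the subunits relative to the wild-type mean was lowest on replicate 3 in 7 of 8 strains, and on replicate 1 in *htz1Δ swr1Δ*. In *swc5Δ* it was 0.05 on replicate 1, -0.09 on replicate 2 and -0.18 on replicate 3. The median SD of the subunits there was 0.15, beside 0.03 to 0.09 in the other strains. That of all tested probe sets was also highest in *swc5Δ*, at 0.15 beside 0.07 to 0.12, so the spread is not particular to the subunits. The strain means were 0.05 ± 0.02 (SD, n = 3) in *htz1Δ* and between -0.04 and -0.07 in the 6 other mutants. *htz1Δ* replicates 1 to 3 read 0.06, 0.06 and 0.03, while wild type read 0.03, 0.01 and -0.04, so that these groups overlap at replicate 1 of wild type. What sets the level on a replicate was not tested.

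**Figure D4:**
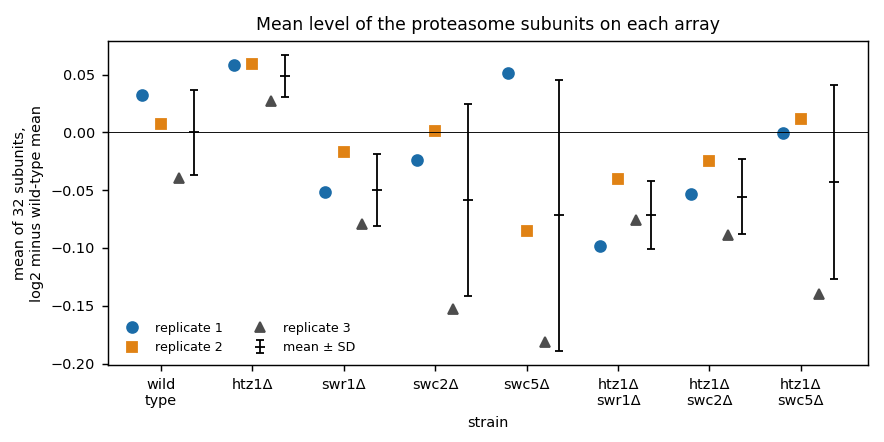
Mean of the 32 subunits minus their wild-type mean (vertical axis, log2) on each of the 24 arrays, by strain (horizontal axis). Shapes give the replicate number, and the bar is the mean ± SD of 3. Replicate 3 is the lowest array in 7 of 8 strains, and swc5Δ spans from 0.05 to -0.18.

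Over the 24 arrays the level of *RPT4* followed the mean of the other subunits most closely (r = 0.88), followed by *RPT3* (0.86) and *PUP1* (0.84). *RPN4* did so with r = 0.09, *PRE1* with -0.02 and *RPN3* with -0.17. Outside the members the 10 tested probe sets most like the mean subunit level were those of *DOA1*, *HFD1*, *YBR053C*, *YPR1*, *PNC1*, *YJR096W*, *TFS1*, *RFS1*, *AIM7* and *SYM1* (r = 0.92 to 0.86). *DOA1* encodes a ubiquitin-binding cofactor of Cdc48. These are descriptions over arrays that share strains and normalisation.

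Among cells without H2A.Z, some subunits were lower where a SWR1 subunit was missing too. Against *htz1Δ*, 8 subunits (25%) fell in *htz1Δ swr1Δ* (all tested 21.5%) and 0 rose (all tested 16.6%). In *htz1Δ swc2Δ* 8 (25%) fell (all tested 16.4%) and 0 rose (18.5%). In *htz1Δ swc5Δ* 4 (12.5%) fell (all tested 14.8%) and 0 rose (17.7%). The share that fell was thus near that of all tested in *htz1Δ swr1Δ* and *htz1Δ swc5Δ*, and above it in *htz1Δ swc2Δ*. The excess in *htz1Δ swc2Δ* is of few genes, and its count was 5 with quantile normalisation and 4 with all probe sets tested. The median changes of the subunits were -0.12, -0.10 and -0.09, beside -0.03, 0.0048 and 0.01 for all tested probe sets. The 3 comparisons share the *htz1Δ* arrays, and *htz1Δ* alone carries *bar1Δ*, whose part cannot be told apart from that of the SWR1 subunit. Of the 20 calls 9 held whichever array was left out, those of *SCL1* and *RPN7* in all 3 double mutants, *RPN10* in *htz1Δ swc2Δ* and *htz1Δ swc5Δ*, and *PRE8* in *htz1Δ swc2Δ*. The count in *htz1Δ swr1Δ* was 4 without *htz1Δ* replicate 1 or its own replicate 3 and 5 without *htz1Δ* replicate 2 or its own replicate 1, and that in *htz1Δ swc2Δ* was 4 without *htz1Δ* replicate 2 or its own replicate 1 and 5 without *htz1Δ* replicate 3.

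*SCL1*, *RPN7* and *RPN13* fell in all 3 double mutants against *htz1Δ*. *SCL1* fell by 0.32, 0.45 and 0.34 in *htz1Δ swr1Δ*, *htz1Δ swc2Δ* and *htz1Δ swc5Δ* (adjusted p = 0.0045, 0.00032 and 0.0032). *RPN7* read 11.79, 11.85 and 11.81 in *htz1Δ swr1Δ*, 11.78, 11.81 and 11.61 in *htz1Δ swc2Δ* and 11.79, 11.86 and 11.68 in *htz1Δ swc5Δ*, all under the *htz1Δ* arrays, and fell by 0.27, 0.35 and 0.31 (adjusted p = 0.014, 0.0027 and 0.0073). *RPN13* fell by 0.21 to 0.23 (adjusted p = 0.021, 0.02 and 0.014). *RPN10* fell by 0.29 in the double mutants with *swc2Δ* and *swc5Δ* (adjusted p = 0.0028 and 0.0027). In *htz1Δ swr1Δ* the lid genes *RPN6* (11.50, 11.64 and 11.58, against 12.03, 11.88 and 11.75) and *RPN5* fell by 0.32 and 0.26 (adjusted p = 0.009 and 0.021), and *RPT2* fell by 0.23 (adjusted p = 0.023). In *htz1Δ swc2Δ* the alpha subunits *PRE8* and *PRE5* fell by 0.27 and 0.24 (adjusted p = 0.005 and 0.036).

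*RPN4* fell against *htz1Δ* in *htz1Δ swr1Δ*, by 0.27 (adjusted p = 0.011), with no overlap of the arrays, and the call was lost without *htz1Δ* replicate 2 (0.23 lower, adjusted p = 0.058). In *htz1Δ swc2Δ* and *htz1Δ swc5Δ* its differences from *htz1Δ* were -0.10 (95% interval -0.26 to 0.06, adjusted p = 0.34) and -0.03 (-0.20 to 0.13, adjusted p = 0.78). *RPN2*, higher than wild type in *htz1Δ*, passed in none of these comparisons.

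Compared directly with the single mutants, *htz1Δ* had more subunits higher than lower. Against *swr1Δ* 7 were higher and 2 lower (all tested 21.1% and 21.9%), against *swc2Δ* 9 and 0 (20.2% and 21%) and against *swc5Δ* 10 and 0 (17% and 18%). The median differences were 0.10, 0.10 and 0.14. Only *htz1Δ* carries *bar1Δ*, whose part in these differences cannot be told apart from that of H2A.Z loss. *SCL1* was higher in *htz1Δ* by 0.32, 0.42 and 0.43 and *RPN7* by 0.32, 0.42 and 0.46 (adjusted p 0.00041 to 0.0042). *RPN6* was 0.52 higher than in *swr1Δ* (adjusted p = 0.00016), the largest difference of a subunit between 2 strains here, and *PUP2* was 0.32 lower (adjusted p = 0.00075). *RPT5*, an ATPase, was higher than in *swr1Δ* by 0.34 (adjusted p = 0.0064) and than in *swc5Δ* by 0.31 (adjusted p = 0.014), where the arrays overlap. *RPN13* was higher than in *swc2Δ* and *swc5Δ* by 0.29 and 0.31 (adjusted p = 0.0029 and 0.0023), and *PRE8* than in *swc2Δ* by 0.31 (adjusted p = 0.0017). *RPN10* was higher than in *swc2Δ* by 0.37 (adjusted p = 0.00031) and than in *swc5Δ* by 0.28 (adjusted p = 0.0036). *RPN4* did not pass, at 0.18 above *swr1Δ* (adjusted p = 0.07), 0.16 under *swc2Δ* (0.11) and 0.17 above *swc5Δ* (0.11).

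These 3 comparisons turn with the level of the arrays. On the deposited values 30 subunits were higher in *htz1Δ* than in *swr1Δ*, while 20 were lower than in *swc2Δ* and 11 lower than in *swc5Δ*. The share of all tested was not counted on those values, and these deposited counts are not read as a result about the subunits. The count higher than in *swc5Δ* was 18 without *swc5Δ* replicate 1, 5 without its replicate 2, 4 without its replicate 3 and 6 without *htz1Δ* replicate 2, and that against *swc2Δ* was 5 without *swc2Δ* replicate 3.

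Where a SWR1 subunit was already missing, 1 subunit call went with the loss of H2A.Z. In *htz1Δ swr1Δ* against *swr1Δ* only *PUP2* passed, lower by 0.30 (adjusted p = 0.024), beside 0.891% of all tested probe sets that fell and 0.346% that rose. That call was lost without any 1 of the 6 arrays. No subunit passed in *htz1Δ swc2Δ* against *swc2Δ* (all tested 0.0364% in each direction) or in *htz1Δ swc5Δ* against *swc5Δ* (3.87% rose and 3.02% fell). At an unadjusted limma p under 0.05 there were 0 up and 1 down in the former and 1 up and 2 down in the latter. The differences of the subunits lay between -0.16 and 0.13 in the former and between -0.24 and 0.23 in the latter. Without *swc5Δ* replicate 1, 6 rose and 2 fell in the latter. *RPN4* was lower by 0.26 in *htz1Δ swc2Δ* than in *swc2Δ* (95% interval -0.42 to -0.09), with no overlap of the arrays, but its adjusted p was 0.3. On the deposited values the 3 comparisons gave 30 subunits that rose in the first, and 31 and 18 that fell in the others. The share of all tested was not counted on those values, where whole arrays differ in level.

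Whether losing a SWR1 subunit did the same with and without H2A.Z was tested as an interaction. For *swr1Δ* the term passed below 0 in 2 subunits and above 0 in none (all tested 16.9% and 15.8%), for *swc2Δ* in 2 and 1 (14.3% and 17.7%), and for *swc5Δ* in 3 and 0 (16.4% and 18.8%). *RPN2* passed in all 3 terms, all of which share the wild-type and *htz1Δ* arrays. Only *htz1Δ* carries *bar1Δ*, whose part in these terms cannot be told apart from that of H2A.Z loss.

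Among 14 assembly factors and partners of the proteasome, 4 rose (28.6%, beside 24.2% of all tested) and 2 fell (14.3%, beside 26.9%) in *htz1Δ*, with a median of 0.02. In each other mutant 0 or 1 rose (at most 7.14%, beside 10.9% to 17.9%) and 2 or 3 fell (14.3% or 21.4%, beside 16.3% to 18.7%). *TMA17*, an ATPase-ring assembly factor, rose in *htz1Δ* by 0.47 (9.99 ± 0.23 against 9.52 ± 0.18, SD, n = 3, adjusted p = 0.044). *UBP6*, the deubiquitinase that docks on the base, rose by 0.44 (11.27 ± 0.11 against 10.83 ± 0.02, adjusted p = 0.00014) and *SEM1*, a small lid protein, by 0.44 (adjusted p = 0.00039). *TMA17* and *UBP6* fell against *htz1Δ* in all 3 double mutants, *TMA17* by 0.50 to 0.53 (adjusted p 0.037 to 0.045) and *UBP6* by 0.26 to 0.36 (0.0019 to 0.016). In the double mutants 0, 1 and 1 of the 14 rose and 6, 5 and 5 fell against *htz1Δ* (42.9%, 35.7% and 35.7% fell, beside 21.5%, 16.4% and 14.8% of all tested, and 16.6%, 18.5% and 17.7% of all tested rose). The *TMA17* calls against *htz1Δ* were each lost without 3 or 4 single arrays, and the one against wild type was lost without wild-type replicate 2 or 3 or *htz1Δ* replicate 2 or 3 (adjusted p 0.071 to 0.17).

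*SEM1* had its own pattern. Its mean was 10.91 in wild type, 10.89 in *swr1Δ* and 10.81 in *htz1Δ swr1Δ*, and between 11.31 and 11.39 in the 5 other mutants, with no overlap of the arrays of these sets. It rose in those 5 by 0.40 to 0.47 and was lower in *htz1Δ swr1Δ* than in *htz1Δ* by 0.54 (adjusted p = 0.00013). The grouping was seen in the data and not set beforehand, and the levels of *swr1Δ*, *swc2Δ* and *swc5Δ* in it are mapped ones.

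Of 24 genes of ubiquitin conjugation and Cdc48, 6 rose (25%, beside 24.2% of all tested) and 2 fell (8.33%, beside 26.9%) in *htz1Δ*, with a median of 0.06. *UBI4*, the polyubiquitin gene that stress induces, read 11.29, 11.16 and 11.08 in wild type and 11.89, 12.01 and 12.01 in *htz1Δ*, a rise of 0.79 (adjusted p = 0.00018). It also rose in *swr1Δ* by 0.66, in *swc2Δ* by 0.50 and in the double mutants by 0.65, 0.40 and 0.67 (adjusted p = 0.0017, 0.012, 0.0022, 0.042 and 0.0014). The call in *htz1Δ swc2Δ* was lost without any 1 of 5 arrays (adjusted p 0.06 to 0.13), and that in *swc2Δ* without its replicate 2 (0.058). *SSM4*, a ligase of the endoplasmic reticulum, fell in *htz1Δ* by 0.73 (adjusted p = 2.2e-05), and *RSP5*, a ligase of membrane proteins, rose by 0.45 (adjusted p = 0.013). In the other mutants 2 to 4 of the 24 rose (8.33% to 16.7%, beside 10.9% to 17.9%) and 2 to 4 fell (8.33% to 16.7%, beside 16.3% to 18.7%). *HRD1*, another ligase of the endoplasmic reticulum, fell in all 7 mutants, by 0.37 to 0.76. The sizes for *UBI4* and *HRD1* in *swr1Δ*, *swc2Δ* and *swc5Δ* rest on the mapped level of those arrays.

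Another 6 genes that act on *RPN4* or its protein were followed, *YAP1*, *PDR1*, *PDR3* and *HSF1*, whose products activate its transcription, and *UBR2* and *MUB1*, whose products mark Rpn4 for degradation. Of the 6, 3 rose and 1 fell in *htz1Δ* (all tested 24.2% and 26.9%), and 2 to 4 rose and 0 or 1 fell in the other mutants (all tested 10.9% to 17.9% and 16.3% to 18.7%). *MUB1* rose in all 7 mutants. It read 7.83, 7.94 and 7.79 in wild type, 8.17 to 8.28 in *htz1Δ*, 8.64 to 8.71 in *swr1Δ* and 8.69 to 8.90 in *htz1Δ swr1Δ*, a rise of 0.39, 0.82 and 0.92 in these 3 (adjusted p = 0.00029, 1.4e-07 and 3.5e-08). In the other 4 mutants it rose by 0.37 to 0.54. The sizes in *swr1Δ*, *swc2Δ* and *swc5Δ*, for *MUB1* as for *UBR2* below, rest on the mapped level of those arrays.

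*UBR2* rose in every mutant but *htz1Δ*. It read 7.81, 8.09 and 8.03 in wild type and 7.97, 7.94 and 7.70 in *htz1Δ*, which overlap. In *swr1Δ* it read 8.56, 8.85 and 8.69, a rise of 0.72 (adjusted p = 5.4e-05), and in *htz1Δ swr1Δ* 8.64, 8.64 and 8.74, a rise of 0.69 (adjusted p = 8.5e-05). The rises in the other 4 mutants were 0.30 to 0.46. *UBR2* was lower in *htz1Δ* than in *swr1Δ*, *swc2Δ* and *swc5Δ* by 0.83, 0.52 and 0.49 (adjusted p = 1.5e-05, 0.0012 and 0.0025). Without wild-type replicate 1 its call in *swc5Δ* was lost (adjusted p = 0.072), and that in *htz1Δ swc2Δ* was lost without any 1 of 4 arrays (0.065 to 0.22).

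Of the activators, *YAP1* and *HSF1* rose in *htz1Δ* by 0.36 each (adjusted p = 0.0035 and 0.0013). *PDR1* fell there by 0.42 (9.89, 9.80 and 9.81, from 10.22, 10.27 and 10.26, adjusted p = 2.4e-05). *HSF1* also rose in *swr1Δ* by 0.51 (adjusted p = 0.0001), where *RPN4* did not pass. Both results rest on the mapped level of the *swr1Δ* arrays, and on the deposited values *RPN4* fell there by 0.29 (adjusted p = 0.0027). In *swc2Δ*, the strain with the highest *RPN4*, *UBR2* and *MUB1* passed and no activator did. This rests on the mapped values, and on the deposited values *PDR1* rose in *swc2Δ* by 0.24 (adjusted p = 0.0027). *PDR3* rose in *htz1Δ swc5Δ* by 0.76 (adjusted p = 0.009). In *swr1Δ* and *htz1Δ swr1Δ* its arrays also lay above all wild-type arrays, with differences of 0.55 and 0.51 that did not pass (adjusted p = 0.052 and 0.079), and the strains were not compared with *htz1Δ swc5Δ*.

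**Figure D5:**
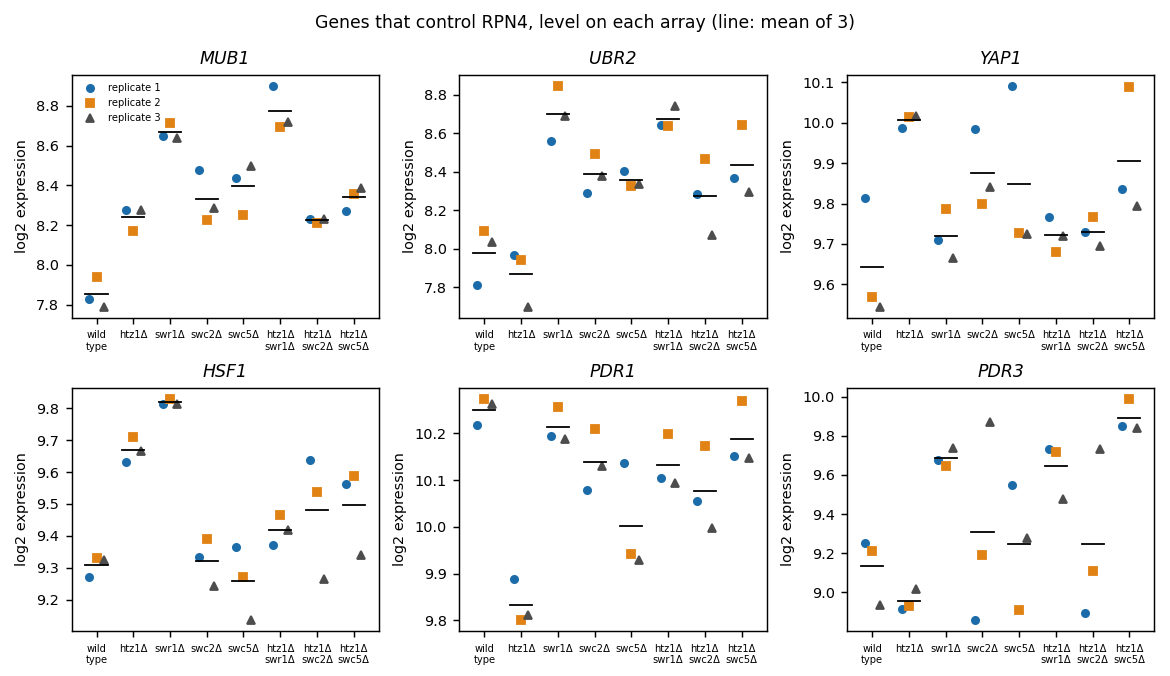
Log2 expression (vertical axis) of MUB1, UBR2, YAP1, HSF1, PDR1 and PDR3 on each of the 24 arrays, by strain (horizontal axis). Points are arrays, with the replicate number as shape, and the line is the mean of 3. MUB1 is above wild type in every mutant, UBR2 in every mutant except htz1Δ (7.70 to 7.97), and PDR1 is lowest in htz1Δ (9.80 to 9.89). The swr1Δ, swc2Δ and swc5Δ arrays are shown at their mapped values.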

How the data were processed

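The authors scanned the arrays, summarised each probe set by RMA and deposited the result on a log2 scale. The processing notes name GCOS, RMA and limma, and which arrays were normalised together is not given in the sources used here. Probe sets were named through the array's gene table, updated to current symbols: 5498 of 10928 had 1 yeast gene, 1746 belong to another species, 1 to several genes and 3683 have no gene there.

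The 9 arrays of *swr1Δ*, *swc2Δ* and *swc5Δ* were mapped by rank, over the 5498, to the mean distribution of the other 15. This choice came from an earlier analysis of these arrays, made with its counts seen. With limma 3.58.1 (R 4.3.3) and data.table version 1.17.8, 1 mean per strain was fitted over all 24 arrays, with moderated variances (16 residual and 2.80 prior degrees of freedom). The Benjamini-Hochberg adjustment ran over the 5498 probe sets of each comparison. The number of arrays limits the precision.

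The members and gene lists were chosen with earlier results of these data known. By rule, *RPN4* was named in every comparison, with the 5 largest called changes of the subunits, the 2 smallest (printed for the comparisons with wild type) and the 3 largest called changes of each list in *htz1Δ*. Other genes were named after their values were seen. A pair of names in the assembly list are other names of genes in it, which left 14. Alternatives were the levels of the arrays, a filter on dim probe sets, the probe sets tested, the arrays fitted, a replicate block and leaving out each array. The code was tested on simulated data. No promoter or protein sequence was used here.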

Additional observations from a re-analysis of the deposited data

Results flagged for a closer look

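In 10 cases among the members the interaction term in limma passed (double minus *htz1Δ*, less single minus wild type). Its p was adjusted over all tested probe sets. The term asks whether losing a SWR1 subunit had another effect in cells without H2A.Z. For *swr1Δ*, *swc2Δ* and *swc5Δ*, 6.25%, 6.25% and 9.38% of the subunits passed below 0, beside 16.9%, 14.3% and 16.4% of all tested. Above 0 it was 0%, 3.12% and 0%, beside 15.8%, 17.7% and 18.8%. All terms share the wild-type and *htz1Δ* arrays. *htz1Δ* alone carries *bar1Δ*, whose part cannot be told apart from that of H2A.Z loss. *RPN4* passed for *swr1Δ* (-0.43 ± 0.11, SE, adjusted p = 0.0062) and *swc2Δ* (-0.60 ± 0.11, adjusted p = 0.00055). Loss of Swc2 went with 0.50 more *RPN4* in cells with H2A.Z. In cells without H2A.Z *RPN4* was 0.10 lower with the loss of Swc2, which did not pass. On the values as deposited the term of *RPN4* for *swr1Δ* was 0.02 (adjusted p = 0.89).

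*RPN2* passed for *swr1Δ* (-0.41, adjusted p = 0.024), *swc2Δ* (-0.48, adjusted p = 0.01) and *swc5Δ* (-0.44, adjusted p = 0.015). *RPN3* passed for *swc2Δ* (-0.41, adjusted p = 0.017) and *swc5Δ* (-0.50, adjusted p = 0.0046). *PRE8* passed for *swr1Δ* (-0.31, adjusted p = 0.021) and *PUP3* for *swc5Δ* (-0.36, adjusted p = 0.017). *RPN9* passed above 0, for *swc2Δ* (0.22, adjusted p = 0.023), and was -0.11 on the deposited values (adjusted p = 0.21), where *PRE8* for *swr1Δ* was 0.07 and *RPN2* for *swr1Δ* lost its call (adjusted p = 1).

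The term of *RPN2* for *swr1Δ* was lost without *htz1Δ* replicate 1 (-0.34, adjusted p = 0.068), *swr1Δ* replicate 2 (-0.39, 0.054) or *htz1Δ swr1Δ* replicate 1 (-0.39, 0.053). That of *PRE8* was lost without wild-type replicate 3 (-0.27, 0.059), that of *RPN3* for *swc2Δ* without *htz1Δ swc2Δ* replicate 3 (-0.34, 0.05), and that of *RPN9* without wild-type replicate 1 (0.17, 0.067) or *htz1Δ swc2Δ* replicate 2 (0.21, 0.051).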

How the results depend on the processing

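The level of the single-mutant arrays decides the most. That level differs for whole arrays, and the shares of all tested probe sets on the deposited values were not counted. The deposited counts below are therefore not read as results about the subunits. On the values as deposited, the subunits that rose and fell against wild type numbered 0 and 31 in *swr1Δ*, 25 and 0 in *swc2Δ* and 12 and 0 in *swc5Δ*, with medians of -0.43, 0.28 and 0.15. Double against single mutants gave 30 that rose and 0 that fell for *swr1Δ*, and 31 and 18 that fell for *swc2Δ* and *swc5Δ* (medians 0.38, -0.31 and -0.19). *htz1Δ* against *swr1Δ*, *swc2Δ* and *swc5Δ* gave 30, 0 and 2 that rose and 0, 20 and 11 that fell (medians 0.48, -0.23 and -0.091). The interactions for *swr1Δ*, *swc2Δ* and *swc5Δ* had medians of 0.31, -0.35 and -0.24, with 22 above 0 in the first, 0 in the second, and 0, 24 and 12 below 0. *RPN4* was -0.29 in *swr1Δ* and 0.42 in *swc5Δ*, 0.36 and -0.61 in the double mutants against *swr1Δ* and *swc2Δ*, 0.63 and -0.51 in *htz1Δ* against *swr1Δ* and *swc2Δ*, and 0.018 and -0.46 in the interactions for *swr1Δ* and *swc5Δ*. Directions turned against wild type in *swr1Δ* for *RPN2* (-0.16), *PUP2* (-0.15), *RPN13* (-0.40), *PUP3* (-0.38), *YAP1* (-0.37) and *UBP6* (-0.35). They turned in *swc2Δ* for *PRE4* (0.095), *RPN10* (0.035), *PRE1* (0.16), *PRE10* (0.056), *RPN9* (0.16), *PRE5* (0.037), *PRE3* (0.12), *PDR1* (0.24) and *SSM4* (0.28), and in *swc5Δ* for *RPN10* (0.038) and *UBP6* (0.22). In *htz1Δ* against *swc2Δ* they turned for *PRE4* (-0.10), *PRE2* (-0.30), *PRE6* (-0.095), *RPN13* (-0.057), *PRE8* (-0.026), *PRE5* (-0.096) and *PRE3* (-0.089), and against *swc5Δ* for *RPN2* (-0.24), *PRE7* (-0.23), *PRE6* (-0.011), *PRE8* (-0.051) and *PRE3* (-0.020). Against *swr1Δ* they turned for *RPN11* (0.14), *PUP2* (0.049) and *RPN9* (0.39) in *htz1Δ* and for *PUP2* (0.066) and *RPN13* (0.40) in *htz1Δ swr1Δ*, and in the interactions for *PRE2* (-0.30) and *RPN9* (-0.11) with *swc2Δ*, *PRE1* (-0.23) with *swc5Δ* and *PRE8* (0.074) with *swr1Δ*. The cause was not tested.

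Quantile normalisation moved the count that rose in *htz1Δ swr1Δ* and in the *swc5Δ* interaction from 0 to 1, that fell in *htz1Δ* from 1 to 2 and in *htz1Δ swc2Δ* against *htz1Δ* from 8 to 5. Median centring gave 4 that rose and 2 that fell in *swr1Δ* (median 0.015), 1 that rose in *htz1Δ swr1Δ*, 3 that fell in *htz1Δ swr1Δ* against *swr1Δ* and a median of 0.023 in *htz1Δ* against *swr1Δ*. With all probe sets tested, 0 rose and 3 fell in *swr1Δ*, 0 fell in *htz1Δ*, 2 fell in each double mutant, 4 fell in *htz1Δ swr1Δ* and in *htz1Δ swc2Δ* against *htz1Δ*, 6 rose in *htz1Δ* against *swc5Δ*, the *swc2Δ* interaction had 0 above 0 and the *swr1Δ* interaction 0 below 0, and *RPN4* in *htz1Δ swc2Δ* (0.24) had an adjusted p of 0.059. Fitting only the strains compared gave 4 that rose in *swr1Δ*, 3 that fell in *swc2Δ*, 0 and 0 in *swc5Δ*, 1 that rose in *htz1Δ swr1Δ*, 3 that fell in *htz1Δ swr1Δ* against *swr1Δ*, 2 that rose in *htz1Δ* against *swc5Δ*, and 2 above and 7 below 0 in the *swr1Δ* interaction. *RPN4* then lost its call in *htz1Δ swc2Δ* (0.24, adjusted p = 0.14) and *htz1Δ swc5Δ* (0.31, 0.072) and passed in *htz1Δ* against *swr1Δ* (0.18, 0.035). Mapping over all probe sets, chosen after seeing the data, gave 1 that rose in *swr1Δ*. Leaving out the dimmest 25% moved none of these counts of subunits, but moved 9 counts of the other gene lists. *MUB1* and *UBR2* were among the probe sets left out, so this alternative does not bear on them. The cause was not tested.

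With a replicate block 1 subunit rose in *htz1Δ swr1Δ*, 8 fell in *swc5Δ* and 2 fell in *htz1Δ swr1Δ* against *swr1Δ*, and no call of *RPN4* changed. Arrays of the same number had a median residual correlation of 0.09 (-0.37 to 0.62 over 84 pairs), other arrays -0.04, and 19 of 24 were most like their own number. Arrays of the same number thus shared part of their spread. The main fit leaves this out and treats the cultures as independent. The numbers were not taken as pairs, since the labels name nothing shared and not every pair's correlation was over 0.1.

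Leaving out 1 array gave these ranges of subunits that rose: *htz1Δ* 2 to 5, *swr1Δ* 0 to 2, *swc2Δ* 1 to 2, *htz1Δ swc2Δ* 0 to 1, *htz1Δ* against *swc2Δ* 5 to 9 and against *swc5Δ* 4 to 18, *htz1Δ swc5Δ* against *swc5Δ* 0 to 6, and the interactions for *swc2Δ* 0 to 1 and *swc5Δ* 0 to 3. The ranges that fell were *htz1Δ* 0 to 1, *swr1Δ* 2 to 4, *swc2Δ* 2 to 7, *swc5Δ* 2 to 15, *htz1Δ swr1Δ* 2 to 4, *htz1Δ swc2Δ* 0 to 4, *htz1Δ swc5Δ* 1 to 5, against *htz1Δ* 4 to 7 in *htz1Δ swr1Δ* and 4 to 8 in *htz1Δ swc2Δ*, *htz1Δ swr1Δ* against *swr1Δ* 0 to 0, *htz1Δ swc5Δ* against *swc5Δ* 0 to 2, *htz1Δ* against *swc5Δ* 0 to 2, and the interactions for *swr1Δ* 1 to 2 and *swc2Δ* 1 to 3. *RPN4* ranged from 0.065 to 0.28 in *swr1Δ*, 0.080 to 0.29 in *swc5Δ*, 0.14 to 0.35 in *htz1Δ swc2Δ*, -0.32 to -0.23 in *htz1Δ swr1Δ* against *htz1Δ* and -0.32 to -0.11 in the *swc5Δ* interaction. The medians ranged from -0.18 to -0.033 in *swc5Δ*, -0.015 to 0.14 in *htz1Δ swc5Δ* against *swc5Δ*, 0.076 to 0.23 in *htz1Δ* against *swc5Δ* and -0.077 to 0.082 in the *swc5Δ* interaction. The share of promoters with the PACE motif was not run.

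Differences of these sizes rest on 3 arrays a strain, and a change under about the spread between cultures was not detectable. A larger change could be missed too. *RPT5* was 0.22 higher in *htz1Δ* than in wild type, with a pooled SD of 0.11, and did not pass.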
